A study of Mus musculus with 16 samples.

Results

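Cytosolic ribosomal protein mRNAs were followed in liver RNA from 16 male C57BL6/J mice. The genes were protein-coding genes chosen by name. The whole symbol had to be *Rpl* or *Rps* and a number, optionally followed by a letter (a, x, l or y) and further digits. *Rplp0*, *Rplp1*, *Rplp2* and *Rpsa* were added by name. Pseudogenes were left out, and a gene needed at least 1 CPM (a count scaled to a fixed library total) in at least 4 libraries. Of the 52143 genes in the table, 80 met the rule, 32 for the small (40S) and 48 for the large (60S) subunit. The rule itself uses no measured difference between groups, although the family was picked with earlier results of these data known. Of 83 protein-coding candidates the rule left out *Rpl10l*, *Rpl39l* and *Rpl3l*, which reached at most 0, 0.437 and 0.285 CPM in any library. The lowest genes inside it were *Rpl22l1* and *Rpl12*, with means of 18.5 and 21.5 CPM, so the set ended far from the threshold on both sides. All 80 also passed the filter of the fit, which tested 11324 genes.

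Mice entered the study at 6 weeks of age and received chow or a high-fat diet (HFD, 60% fat) for 12 weeks. On either diet, an siRNA against *Fgfr4*, the FGF receptor of hepatocytes that controls bile acid synthesis, was given at 3 mg/kg at intervals of 2 weeks, and control mice got saline. The 4 groups of 4 mice are named Chow, Chow/FGFR4 KD (knockdown), HFD and HFD/FGFR4 KD. The siRNA was coupled to N-acetylgalactosamine, which directs uptake to hepatocytes. No other siRNA was given to the controls, so effects of siRNA delivery and of the loss of FGFR4 cannot be told apart. *Fgfr4* lay between 2.43 and 6.15 CPM in the 8 KD libraries and between 21.7 and 36.2 CPM in the 8 saline libraries.

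A ribosome joins a small subunit, which decodes mRNA, to a large subunit, which forms peptide bonds. Each ribosomal protein is needed in a near fixed proportion, and the hepatocyte is a cell that exports large amounts of plasma protein. Mammalian ribosomal protein mRNAs begin with a run of pyrimidines at the cap, the terminal oligopyrimidine (TOP) tract. Through this tract the kinase mTORC1 and the binding protein LARP1 set how many of these messages are translated and how long they persist. Counts of mRNA, as measured here, do not report translation or the number of ribosomes.

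Some of the genes have in common a run of pyrimidines near their starts, which the choice by name did not use. RefSeq promoter windows (GRCm38.p6) were found for 60 of the 80 genes. The stretches below, from 15 bases before the annotated start to base 15 of the transcript, are shown because they hold or lack this run in genes described later. Capitals mark an unbroken run of at least 8 C or T bases.
Rplp2, chr7:141447636-141447665, plus strand: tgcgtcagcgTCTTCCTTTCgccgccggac
Rps6, chr4:86857353-86857382, minus strand: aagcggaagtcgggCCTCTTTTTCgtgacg
Rps27, chr3:90213634-90213663, minus strand: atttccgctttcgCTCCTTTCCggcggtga
Rps26, chr10:128626492-128626521, minus strand: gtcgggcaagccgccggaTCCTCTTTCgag
Rpl4, chr9:64173372-64173401, plus strand: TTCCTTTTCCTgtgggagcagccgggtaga
Rpl22l1, chr3:28805493-28805522, plus strand: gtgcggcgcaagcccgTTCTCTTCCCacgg
Rplp0, chr5:115559452-115559481, plus strand: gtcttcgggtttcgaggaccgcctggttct
Rpsa, chr9:120127751-120127780, plus strand: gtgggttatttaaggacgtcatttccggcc
Rps3a1, chr3:86142654-86142683, minus strand: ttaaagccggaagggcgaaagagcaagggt
Rpl7l1, chr17:46782642-46782671, minus strand: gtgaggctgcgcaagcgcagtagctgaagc
In *Rplp2*, *Rps6* and *Rps27* the run spans the annotated start, in *Rpl22l1* and *Rps26* it follows it, and in *Rpl4* it lies before it. No run of that length was in the window of *Rplp0*, *Rpsa*, *Rps3a1* or *Rpl7l1*, which says only that these letters were not there at the annotated start.

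Such a run on the gene strand was in 27 of the 60 windows (45%), against 14.6% of 8598 other tested genes with a window. The letters CTTTCC in the same 30 bases were in 9 of 60 (15%), against 1.7% of the other tested genes. In the wider window, from 250 bases before to 50 after the start and on both strands, CCGGAAG, the core recognised by ETS-family factors, was in 25 of 60 (41.7%) against 21.1%. TATAAA was in 7 of 60 (11.7%) against 9.16%, AAGATGGC, the core recognised by YY1, in 6 of 60 (10%) against 5.63%, and the E-box CACGTG in 6 of 60 (10%) against 11.9%. These shares describe the windows and carry no test. Genes with the pyrimidine run had a median log2 change of -0.43 with HFD in saline mice, and the genes without it -0.40.

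Libraries held between 3445949 and 5976449 counts in all and between 30602 and 52212 counts over the 80 genes, which were 0.777% to 1.09% of a library. The noncoding RNA gene *Gm42418* took 11.1% to 22.7% of the counts, with a mean of 18.8% in Chow, 13.9% in HFD, 16.8% in Chow/FGFR4 KD and 16.6% in HFD/FGFR4 KD. Mitochondrially encoded genes took 3.60% to 4.50% in Chow and 4.66% to 5.17% in HFD, without overlap, and 3.82% to 4.70% and 3.83% to 5.08% in the KD groups on chow and HFD. The *Gm42418* shares overlapped between the saline groups, at 13.4% to 22.7% in Chow and 11.1% to 15.6% in HFD. No test between groups was run on either share. A fit without *Gm42418* and *Lars2* gave counts of lower genes and medians similar to those below in both diet comparisons. The part of the mitochondrial share in the results below was not tested. Levels below are CPM scaled with TMM factors, which set each library against the bulk of its genes. HFD/FGFR4 KD 1 stood apart from its group, with a summed level over the 80 genes of 8988 CPM where the other 3 had 7779 to 7901 CPM. Its TMM factor of 0.910 lay outside the 1.08 to 1.12 of the others, and *Gm42418* took 22.3% of its counts against 13.7% to 16.2%. Scaled by library totals alone its sum was the lowest of the group, 8183.5 CPM against 8399 to 8881 CPM. Results that rest on it are therefore given with and without it. Nothing in the labels ties mice of different groups together. The p-values rest on the spread between libraries within groups, estimated over the 4 groups together, part of which may be technical.

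By level per kilobase of the shortest annotated CCDS transcript, *Rps2* (427 CPM per kb), *Rpl10* (412 CPM per kb) and *Rpl41* (364 CPM per kb) were highest. *Rpl5* (16.4 CPM per kb), *Rpl12* (17.3 CPM per kb) and *Rps20* (20.9 CPM per kb, over an annotated length of 3706 bases) were lowest. Near-identical copies take counts as well. The pseudogene *Gm15500*, a copy of *Rpl5*, was given 143 CPM where *Rpl5* had 33.5 CPM, and *Gm10275*, a copy of *Rpl12*, was given 82.7 CPM where *Rpl12* had 21.5 CPM. Up to 94.0% (*Rpl36*) of the 31-base words of a gene occurred in transcripts of other genes, so the level of a single gene is uncertain where this share is high.

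Ribosomal protein mRNA was lower on HFD than on chow in saline-injected mice, relative to the other genes. The comparison of HFD with Chow asks how the diet altered the liver without knockdown. By limma-voom with Benjamini-Hochberg adjustment, 75 of the 80 genes fell and 0 rose. A gene was called at p below 0.05 with an adjusted p below 0.25, the threshold of the study, and 12.7% of all genes tested were called lower by this rule. At an adjusted p below 0.05, 66 of the 80 fell, against 4.65% of all genes tested. All 80 changes were negative, against 49.1% of all genes tested, with a median of -0.41 on the log2 scale (a level 24.9% lower), where the median of all genes was 0.01. The spread of the changes, from -0.85 for *Rpl13* to -0.07 for *Rps27l*, is to be read against a median standard error (SE) of 0.09.

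The summed level of the 80 genes was 9686, 10188, 10534 and 10089.5 CPM in the Chow libraries and 7496, 8225, 7486 and 7149 CPM in the HFD libraries. The groups did not overlap, at 10124 ± 349 CPM (mean ± SD, n = 4) and 7589 ± 454 CPM. The 40S genes summed to 4134 ± 159 CPM in Chow and 3100 ± 184 CPM in HFD, and 29 of 32 fell. The 60S genes summed to 5991 ± 195 CPM and 4489 ± 269.7 CPM, and 46 of 48 fell. The ratio of the 60S to the 40S sum was 1.45 ± 0.02 in Chow and 1.45 ± 0.01 in HFD.

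**Figure D1:**
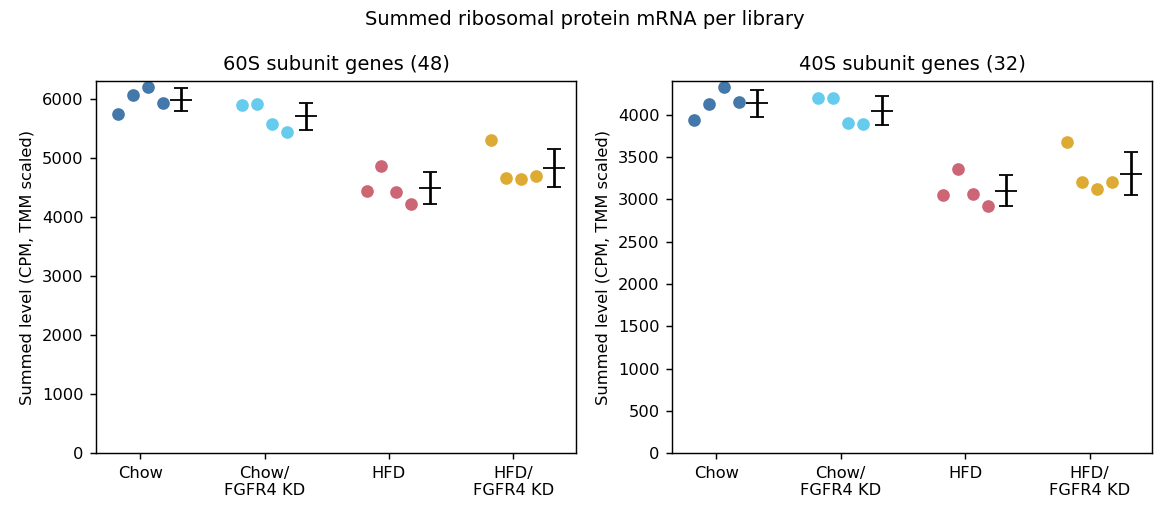
Summed level (CPM, TMM scaled, axis from 0) of the 48 genes of the 60S subunit (left) and the 32 genes of the 40S subunit (right) in each library, coloured by group, with the mean and SD of 4 libraries in black. Every HFD library lies below every Chow library, and HFD/FGFR4 KD 1 lies above the other 3 libraries of its group.

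The size of this difference rests on the scaling. TMM factors were 0.836 to 1.03 in Chow and 1.05 to 1.17 in HFD. With library totals alone the sums were 8520 to 10888 CPM in Chow and 7765 to 8736 CPM in HFD, the median of all genes moved to 0.29, and 16 of the 80 genes fell, all of them among the 75. The median of the 80 genes was then -0.14, which is 0.42 below the median of all genes, and all 80 still lay below that median. Of all calls 92.1% were then higher, against 51.2% with TMM factors. The fall is therefore a change relative to the other genes, and whether the share of total RNA changed to that extent cannot be told from these counts.

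The stalk of the large subunit, which recruits elongation factors, is built from *Rplp0*, *Rplp1* and *Rplp2*. *Rplp0* (ENSMUSG00000067274, chr5:115559467-115563727, GRCm38), often used as a reference gene for normalisation, was at 284, 286, 257 and 271 CPM in the Chow libraries and at 190.5, 213, 200.1 and 216 CPM in the HFD libraries. Every HFD library was below every Chow library, and *Rplp0* fell by 0.42 on the log2 scale (SE 0.0766, adjusted p = 0.00363). *Rplp1* (chr9:61913284-61914542) was at 192, 177, 203 and 201 CPM in Chow and 127, 159, 139 and 137 CPM in HFD, and *Rplp2* (chr7:141447370-141451585) at 95, 84.2, 90 and 91.3 CPM and 64.4, 59.8, 64.8 and 59.8 CPM. Neither pair of groups overlapped, with falls of 0.46 (adjusted p = 0.00465) and 0.53 (adjusted p = 0.000629).

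Among 40S genes, *Rps6* (ENSMUSG00000028495, chr4:86854660-86857412), whose protein is phosphorylated by the S6 kinases, had a change smaller than the median. It was at 138, 147, 146 and 146 CPM in Chow and at 112, 132, 126 and 124 CPM in HFD, with the groups apart but close, and fell by 0.23 (SE 0.0699, adjusted p = 0.051). This value is uncertain, since 45% of its words also occur in other genes. With the counts of pseudogenes named after it added, it fell by 0.39, whereas with library totals alone its change was 0.05. *Rpsa*, which encodes the 40S protein also known as the laminin receptor (chr9:120127689-120132369), was at 291, 309, 274 and 276 CPM in Chow and 178, 218, 179 and 178 CPM in HFD. It fell by 0.61 (SE 0.102, adjusted p = 0.00217), with HFD 2 the highest of the HFD libraries.

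The 5 falls with the smallest p were those of *Rpl22l1*, *Rps14*, *Rps3a1*, *Rplp2* and *Rpl4*. *Rpl4* (chr9:64173375-64178666), a protein that lines the exit tunnel for the growing chain, was at 375, 370.1, 384 and 356 CPM in Chow and 266, 268, 262 and 252 CPM in HFD, a fall of 0.50 (SE 0.0695, adjusted p = 0.000638). *Rps14*, of the platform of the small subunit, was at 128, 133, 129.6 and 125 CPM in Chow and 90.7, 95.3, 93.8 and 85.9 CPM in HFD, and fell by 0.49 (adjusted p = 0.000498). *Rps3a1* (chr3:86137940-86142702) was at 218, 233, 240.1 and 235 CPM in Chow and 160.1, 158, 157 and 143 CPM in HFD, and fell by 0.58 (adjusted p = 0.000593). In all of them the groups were far apart against the spread within a group. Over the 80 genes, 68 had every HFD library below every Chow library, where 7.76% of all genes tested did.

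Paralogs of *Rpl22*, *Rps27* and *Rpl7* were expressed beside the genes they are named after. *Rpl22l1* (ENSMUSG00000039221, chr3:28805436-28807424) was at 23.1, 20, 24 and 24.4 CPM in Chow and 13.5, 13.5, 13.6 and 10.5 CPM in HFD, a fall of 0.83 (SE 0.106, adjusted p = 0.000389). *Rpl22* (chr4:152325742-152334071), the more abundant copy per library, was at 74.2, 71.2, 87.3 and 76.4 CPM and 64.5, 57, 61.3 and 58.1 CPM, a fall of 0.36 (SE 0.0958, adjusted p = 0.0271). Both copies fell, and the difference between their falls was not tested. *Rps27* (chr3:90212522-90213651) fell by 0.49 (SE 0.136, adjusted p = 0.0322), from 65.6, 64.5, 86.5 and 82.8 CPM in Chow to 50.1, 65, 48.4 and 49.5 CPM in HFD, with 1 HFD library, HFD 2, inside the range of Chow. *Rps27l* (chr9:66946086-66949516), known as a p53-inducible copy, did not pass the test, at 72.9, 71.7, 88 and 73 CPM in Chow and 73.5, 78.2, 76.7 and 63.6 CPM in HFD (log2 change -0.07, SE 0.0961, adjusted p = 0.712). The *Rps27l* groups overlapped widely, and its change was the smallest of the 80. *Rpl7* fell by 0.40 (adjusted p = 0.0148) and *Rpl7l1* by 0.34 (adjusted p = 0.168), the latter with overlapping groups, 38.3 to 52.8 CPM in Chow and 30.4 to 44.4 CPM in HFD. The call for *Rpl7l1* was lost in 4 of the 8 fits that leave out a library (Chow 1, Chow 2, HFD 3 or HFD 4).

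The 5 genes that did not pass the test in this comparison were *Rps27l*, *Rps19* (log2 change -0.11, adjusted p = 0.528), *Rpl31* (-0.12, adjusted p = 0.438), *Rpl27* (-0.35, adjusted p = 0.288) and *Rps12* (-0.36, adjusted p = 0.207), named here after their values were seen. *Rpl27* and *Rps12* had SEs of 0.202 and 0.177, above the median SE of 0.09. The largest change among the 80 was that of *Rpl13* (chr8:123102350-123105244), also named after its values were seen, at 106, 112, 129 and 120.4 CPM in Chow and 59.3, 70.3, 62.8 and 66.5 CPM in HFD, a fall of 0.85 (SE 0.138, adjusted p = 0.0018).

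**Figure D2:**
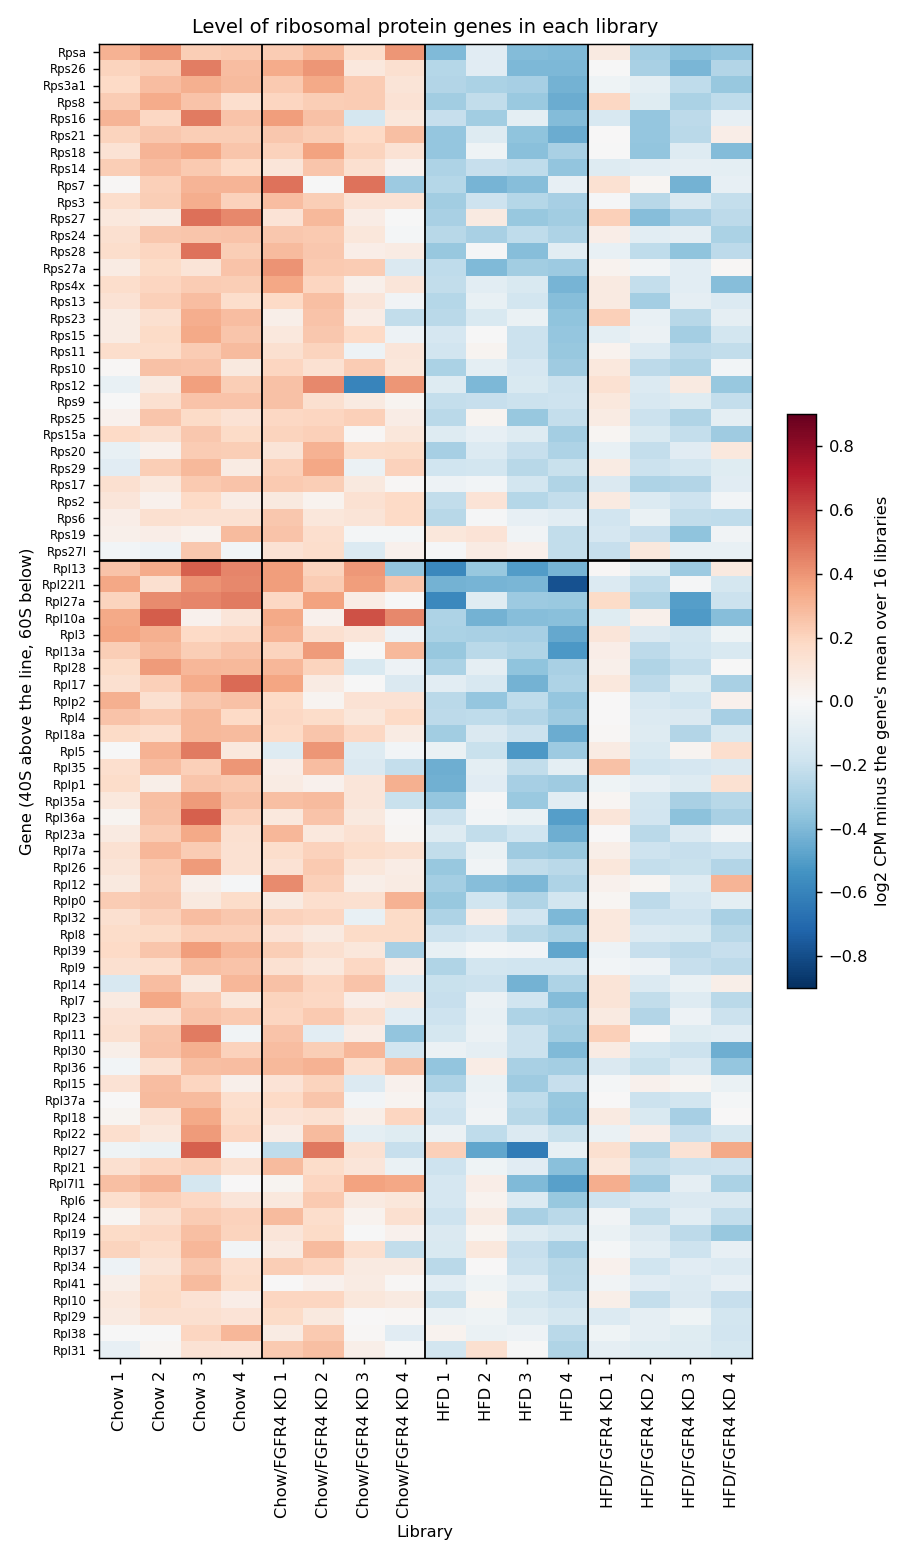
Level of 79 of the 80 genes (rows, 40S above the line and 60S below, each ordered by the change with HFD in saline mice) in the 16 libraries (columns), as log2 CPM minus the mean of the gene over all libraries, red above and blue below it. Chow columns are mostly red and HFD columns mostly blue, HFD/FGFR4 KD 1 is nearer to or above the mean in more genes than the rest of its group, and *Rps27l*, *Rps12* and *Rpl27* do not follow the pattern evenly.

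The genes varied together over the libraries. The first principal component of their log2 levels took 74.96% of the variance and the next 4.68%, and all 80 genes weighed on the first with the same sign. The score was 1.175 to 2.43 in Chow, 0.497 to 1.86 in Chow/FGFR4 KD and -2.79 to -1.10 in HFD. In HFD/FGFR4 KD it was 0.288 in library 1 and -1.69 to -1.38 in the others. As a description over 16 libraries that share depth and scaling, the level of single genes correlated with the mean of the genes at r = 0.979 for *Rps3* and 0.976 for *Rps26*, against 0.405 for *Rps27l* and 0.361 for *Rpl27*. Across the 80 genes the change with HFD in saline mice correlated little with their level (r = 0.06), transcript length (r = -0.18), GC content (r = 0.02) or share of words found elsewhere (r = 0.01).

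The genes were also lower on HFD in mice that received the siRNA. Between Chow/FGFR4 KD and HFD/FGFR4 KD, which share no library with the comparison in saline mice, 58 of the 80 genes fell and 0 rose, where 10.1% of all genes tested were called lower. At an adjusted p below 0.05, 13 fell, against 1.35%. The median change was -0.26 on the log2 scale (a level 16.7% lower), 78 of the 80 changes were negative against 51.2%, and 30 genes had no overlap between the groups, against 5.61% of all genes tested. Without HFD/FGFR4 KD 1, 62 genes fell and the median was -0.31. Without HFD/FGFR4 KD 4, 38 fell. With library totals alone 7 fell, the median was -0.11 where that of all genes was 0.14, and 78 of the 80 lay below the median of all genes. Of all calls 82.7% were then higher, against 50.1%.

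The sum over the 80 genes was 10103, 10107, 9479.5 and 9345.5 CPM in Chow/FGFR4 KD and 8988, 7876, 7779 and 7901 CPM in HFD/FGFR4 KD. Even the highest KD library on HFD was below the lowest on chow with TMM scaling. With library totals alone the groups overlapped, at 8084 to 10187 CPM in Chow/FGFR4 KD and 8183.5 to 8881 CPM in HFD/FGFR4 KD. Of the 32 genes of the 40S subunit 27 fell, with a median of -0.29, and of the 48 of the 60S subunit 31 fell, with a median of -0.24. The 60S to 40S ratio was 1.41 ± 0.01 in Chow/FGFR4 KD and 1.47 ± 0.02 in HFD/FGFR4 KD, a gap that was not tested.

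The 5 falls with the smallest p in KD mice were those of *Rps3a1*, *Rpsa*, *Rps3*, *Rps6* and *Rps26*, all of the small subunit. *Rps3a1* was at 227, 244, 226 and 208 CPM in Chow/FGFR4 KD and 188, 181, 164 and 152 CPM in HFD/FGFR4 KD, and fell by 0.40 (SE 0.0784, adjusted p = 0.0136). *Rps3* (chr7:99477896-99483738), which lies where mRNA enters the small subunit, was at 170.5, 164, 154 and 154 CPM and 139, 118, 128 and 121 CPM, and fell by 0.34 (adjusted p = 0.0189). *Rps26* (chr10:128624534-128626747), near the mRNA exit, was at 95.6, 100, 81 and 84 CPM and 75.6, 62, 57.1 and 63.2 CPM, and fell by 0.49 (adjusted p = 0.0213). In each of the 3 the groups did not overlap.

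*Rps6* was at 157, 142, 144 and 150.4 CPM in Chow/FGFR4 KD and 118, 127, 114 and 114 CPM in HFD/FGFR4 KD, and fell by 0.33 (SE 0.0705, adjusted p = 0.0211). *Rpsa* was at 274, 287, 262 and 308 CPM and 248, 189.7, 181 and 183 CPM, and fell by 0.50 (SE 0.102, adjusted p = 0.0168). HFD/FGFR4 KD 1 was the highest of its group for *Rpsa* but not for *Rps6*. Without that library *Rpsa* fell by 0.61 and *Rps6* by 0.33.

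Of the stalk, *Rplp0* was at 256, 269, 268 and 301 CPM in Chow/FGFR4 KD and 244, 205, 218 and 228 CPM in HFD/FGFR4 KD, and fell by 0.29 (adjusted p = 0.0508), without overlap. *Rplp2* was at 86.2, 77.3, 83.3 and 83.2 CPM and 76.3, 68.9, 67.1 and 77.9 CPM, and fell by 0.19 (adjusted p = 0.165), with overlap, a call lost in 4 of the 8 fits that leave out a library. *Rplp1*, at 179.8, 176, 184 and 213 CPM and 166, 163, 158 and 188 CPM, did not pass the test (log2 change -0.16, SE 0.0883, adjusted p = 0.343). Of the paralogs, *Rpl22l1* fell by 0.43 (adjusted p = 0.0401), from 23.5, 21.2, 23.5 and 21.6 CPM to 16.6, 15.4, 18 and 16.3 CPM without overlap. *Rps27* fell by 0.30 (adjusted p = 0.241), a call lost in 7 of the 8 fits that leave out a library. *Rpl7* fell by 0.25 (adjusted p = 0.151), a call lost in 3 of those 8 fits. *Rpl22* (-0.14, adjusted p = 0.458), *Rpl7l1* (-0.31, adjusted p = 0.276) and *Rps27l* (-0.12, adjusted p = 0.542) did not pass.

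The calls of the 2 diet comparisons, made on separate mice but in 1 fit, overlapped in 56 genes. These were 74.7% of the 75 and 96.6% of the 58. Since 93.8% of the 80 genes were called lower in saline mice, nearly any 58 of them would overlap to a similar extent. The overlap therefore says little about which of the genes fell in both. Of all genes tested 5.09% were called lower in both. The sizes of the changes were less alike, with r = 0.38 and rho = 0.36 across the 80 genes, a description in which genes are not independent replicates. The change was -0.85 in saline and -0.24 in KD mice for *Rpl13*, and -0.62 and -0.59 for *Rpl10a*, both named after their values were seen.

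**Figure D3:**
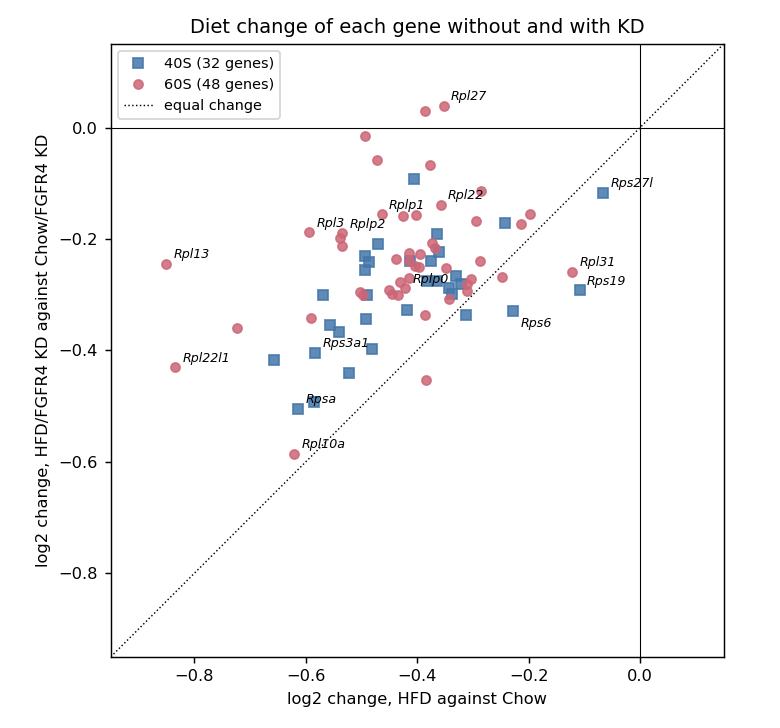
log2 change of each of the 80 genes with HFD in saline mice (horizontal) and in KD mice (vertical), from separate libraries, with squares for the 40S and circles for the 60S subunit and a dotted line of equal change. Most genes lie above the line, with medians of -0.41 and -0.26, and *Rps27l*, *Rps19*, *Rpl31* and *Rps6* lie below it.

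KD on HFD was compared with HFD to ask what loss of FGFR4 does in mice fed HFD. This comparison and that of HFD with Chow share the 4 HFD libraries. Of the 80 genes 5 rose and 0 fell, where 1.5% of all genes tested were called higher and 1.64% lower. They were *Rpl12*, *Rpl22l1*, *Rpl3*, *Rps27a* and *Rplp1*. The median change was 0.10 on the log2 scale, with 13 changes negative against 49.3% of all genes tested, and 13 genes (all higher) had an unadjusted p below 0.05, where 11% of all genes tested did. Every library of HFD/FGFR4 KD lay above every HFD library in 10 genes, against 3.16% of all genes tested. None of the 80 passed an adjusted p of 0.05. EdgeR's quasi-likelihood test called 2 of the 80 higher, *Rpl12* and *Rpl22l1*. DESeq2 called 5, which were *Rpl12*, *Rpl3*, *Rps27a*, *Rplp1* and, in place of *Rpl22l1*, *Rpl13*.

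The 5 calls by limma-voom did not hold against the choice of libraries. None remained without HFD 1, without HFD 3, without HFD/FGFR4 KD 1 or without HFD/FGFR4 KD 4, and only *Rpl12* remained without HFD 4 or without HFD/FGFR4 KD 3. Without HFD/FGFR4 KD 1 the median change over the 80 genes was 0.04. None was called with library totals alone, with a median of 0.03. Of all calls 33.3% were then higher, against 47.8% with TMM factors.

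*Rpl12*, of the base of the stalk, was at 17.2, 16.3, 16.1 and 17.6 CPM in HFD and 21.9, 21.5, 19.6 and 26.3 CPM in HFD/FGFR4 KD (log2 change 0.39, SE 0.109, adjusted p = 0.174). With all pseudogene rows that share its sequence added, which include the more abundant *Gm10275*, the change was 0.21 (adjusted p = 0.255), which missed the threshold. This alternative was chosen after seeing the data. *Rpl22l1* was at 13.5, 13.5, 13.6 and 10.5 CPM and 16.6, 15.4, 18 and 16.3 CPM (log2 change 0.37, adjusted p = 0.196). *Rpl3* (chr15:80077791-80091868), next to the peptidyl transferase centre, was at 137, 136, 136 and 122 CPM and 180.1, 153, 149 and 163 CPM (log2 change 0.28, adjusted p = 0.22). In all 3 the groups did not overlap, and all HFD/FGFR4 KD values of *Rpl22l1* and *Rpl3* lay below the Chow means of 22.9 ± 1.99 and 200.4 ± 12.5 CPM (SD, n = 4).

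*Rps27a* (chr11:29545846-29548109), which encodes a fusion of ubiquitin and a 40S protein, was at 90.6, 80.4, 85.2 and 84.5 CPM in HFD and 109, 104, 99.2 and 107 CPM in HFD/FGFR4 KD (log2 change 0.29, adjusted p = 0.228). *Rplp1* was at 127, 159, 139 and 137 CPM and 166, 163, 158 and 188 CPM (log2 change 0.27, adjusted p = 0.249), with HFD 2 and HFD/FGFR4 KD 3 overlapping. *Rplp0* (0.13, adjusted p = 0.593), *Rplp2* (0.22, adjusted p = 0.272), *Rpsa* (0.08, adjusted p = 0.817) and *Rps6* (-0.06, adjusted p = 0.808) did not pass the test. The sum over the 80 genes was 7589 ± 454 CPM in HFD and 8136 ± 570 CPM in HFD/FGFR4 KD, and its mean was 7852 CPM without library 1 of the latter.

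On chow, KD left no detectable change in any of the 80 genes. None was called by limma-voom, edgeR or DESeq2, and none reached an unadjusted p below 0.05, where 4.59% of all genes tested did and 0.00883% were called. The changes ran from -0.25 for *Rpl35* to 0.12 for *Rpl12* with a median of -0.05 and a median SE of 0.09. Of the 80 changes 62 were negative, where 49.1% of all genes tested were, the median was -0.08 to -0.03 over the 8 fits that leave out a library, and no gene separated the groups, where 1.32% of all genes tested did with KD higher and 1.19% with KD lower. *Rplp0* was at 284, 286, 257 and 271 CPM in Chow and 256, 269, 268 and 301 CPM in Chow/FGFR4 KD (log2 change -0.01, SE 0.0765, adjusted p = 0.994). *Rps6* was at 138, 147, 146 and 146 CPM and 157, 142, 144 and 150.4 CPM (log2 change 0.04, SE 0.0702, adjusted p = 0.984).

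**Figure D4:**
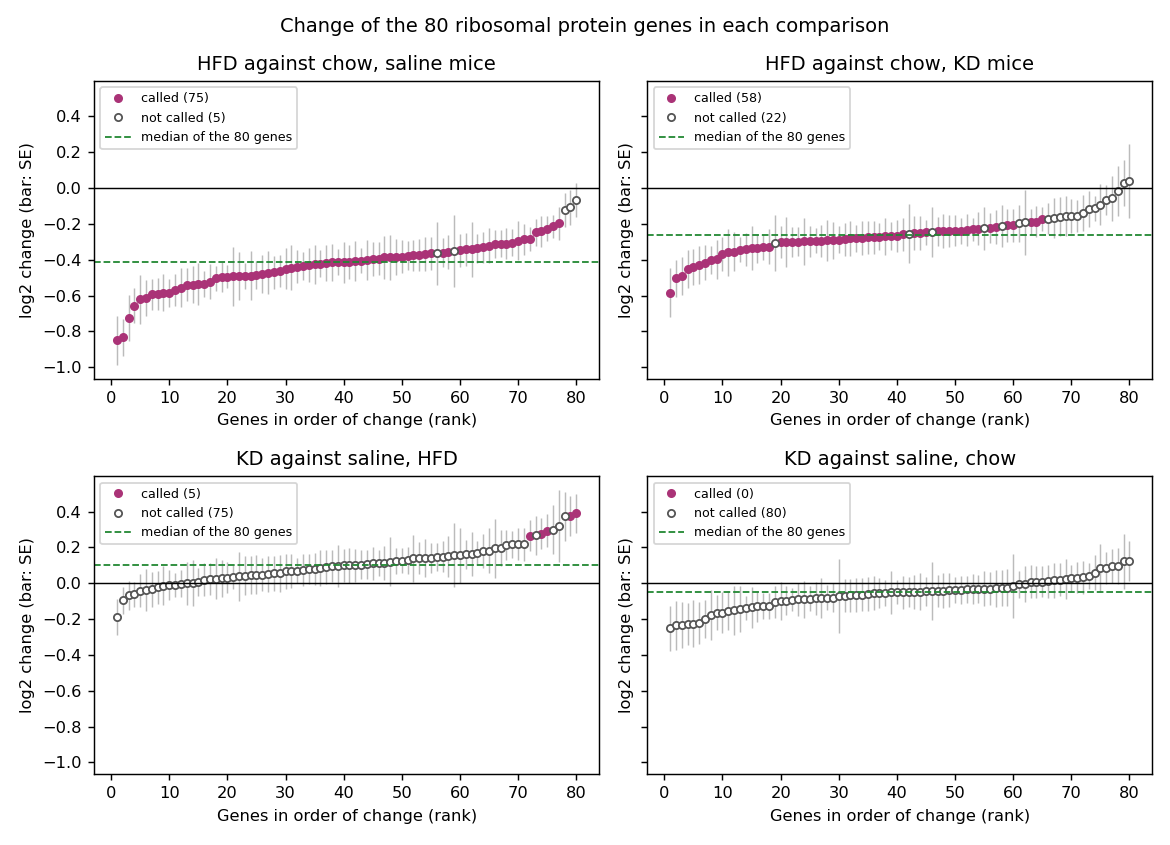
log2 change with its SE of the 80 genes in order of size in each of 4 comparisons, filled where the gene was called and open where it was not, with a dashed line at the median. In saline mice 75 genes fell with HFD, in KD mice 58 fell, and KD moved 5 genes on HFD and 0 on chow.

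Whether the KD effect differed between the diets was tested in the same fit. The median difference (KD effect on HFD minus KD effect on chow) was 0.16 on the log2 scale, or 0.10 without HFD/FGFR4 KD 1 and 0.03 with library totals alone. By limma-voom 0 of the 80 genes were called and 13 had an unadjusted p below 0.05, all positive, where 6.76% of all genes tested had such a p and 0.0353% were called. EdgeR called 0 of the 80, and DESeq2 called 3, *Rpl13*, *Rpl3* and *Rplp2*. By limma-voom the smallest adjusted p among the 80 was 0.571, and the difference was 0.61 for *Rpl13* (SE 0.196, adjusted p = 0.571), 0.41 for *Rpl3* and 0.34 for *Rplp2*. It was 0.13 for *Rplp0* (adjusted p = 0.855) and -0.10 for *Rps6* (adjusted p = 0.877). The same difference is that between the diet effects in KD and in saline mice, so a smaller fall with HFD in KD mice was not shown for any single gene by limma-voom.

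Other genes of translation were counted from lists for comparison. With HFD in saline mice, where 12.7% of all genes tested were called lower, all 4 ribosomal proteins whose symbols lie outside the naming pattern fell, with a median of -0.29. They include *Rack1*, a scaffold on the 40S head (-0.54, adjusted p = 0.000389) and *Fau* (-0.33, adjusted p = 0.0659). Of 13 elongation factors and other TOP mRNAs 9 fell and 0 rose, with a median of -0.30. Among them the translocase *Eef2* fell by 0.39 (adjusted p = 0.00411), *Eef1b2* by 0.49 (adjusted p = 0.00454) and *Eef1g* by 0.41 (adjusted p = 0.0128).

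Differences between the lists were not tested. Of 36 initiation factors 14 fell, with a median of -0.18, led by *Eif3h* (-0.32, adjusted p = 0.0195), and of 50 ribosome assembly genes 11 fell, with a median of -0.17. Of 13 genes of RNA polymerase I, which makes the ribosomal RNA precursor, 2 fell (15.4% of the list, near the 12.7% of all genes). Of 78 mitochondrial ribosomal protein genes 8 fell and 1 rose, with a median of -0.05. That is 11.5% of the list called in either direction, where 26% of all genes tested were. Of 21 genes of mTORC1, S6 kinase and LARP1 control 3 rose and 3 fell, which is 28.6% called in either direction and near the 26% of all genes. Those with the smallest p were *Larp1* (-0.40, adjusted p = 0.00487), *Rps6kb1* (-0.36, adjusted p = 0.065) and *Mtor* (0.49, adjusted p = 0.0352). A change in mRNA of a kinase does not report its activity.

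In KD mice 3 of 4, 5 of 13, 13 of 36, 12 of 50, 1 of 13 and 4 of 78 genes were called lower in the lists of ribosomal proteins outside the pattern, elongation factors, initiation factors, assembly, polymerase I and mitochondrial ribosomal proteins, where 10.1% of all genes tested were. The counts for polymerase I and mitochondrial ribosomal proteins were below that share, and 2 of the latter rose. *Rack1* fell by 0.40 (adjusted p = 0.00623) and *Eef1g* by 0.33 (adjusted p = 0.0671). With KD on HFD, 0 genes of the first 5 of these lists were called and 1 mitochondrial ribosomal protein gene, *Mrps27*, rose (0.41, adjusted p = 0.216). At an unadjusted p below 0.05 there were 0, 1, 3, 1 and 0 in those 5 lists. Of the 21 genes of mTORC1, S6 kinase and LARP1 control, 4 rose and 3 fell with HFD in KD mice. That is 33.3% called in either direction, where 20.2% of all genes tested were. Those with the smallest p were *Sesn3* (0.94, adjusted p = 0.00254), *Rps6kb1* (-0.45, adjusted p = 0.0546) and *Ddit4* (0.99, adjusted p = 0.162). With KD on HFD, 0 of the 21 were called.

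**Figure D5:**
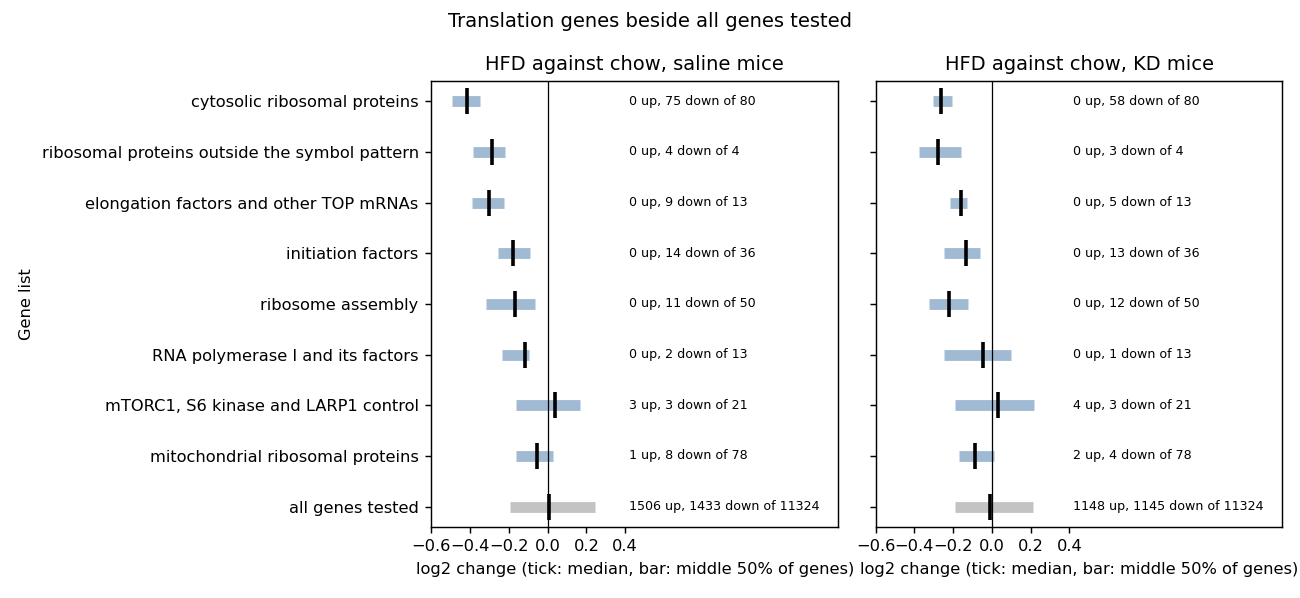
Median (tick) and middle 50% (bar) of the log2 changes with HFD in saline mice (left) and KD mice (right) for the ribosomal protein genes, other lists of translation genes and all genes tested, with the number called higher and lower. The cytosolic ribosomal proteins have the lowest median in saline mice, -0.41, where all genes have 0.01.

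Other groups of genes moved with the diet in the same libraries, and their part in the fall of ribosomal protein mRNA was not tested. With HFD in saline mice 13.3% of all genes tested were called higher and 12.7% lower. The 5 clock genes *Arntl*, *Clock*, *Npas2*, *Nfil3* and *Cry1* (the *Arntl* list) all fell with HFD in saline mice. Their summed levels were 145 to 189.9 CPM in Chow and 51.3 to 75.8 CPM in HFD. Of 8 other clock genes, which include *Dbp*, *Tef*, *Per2* and *Per3* (the *Dbp* list), 6 rose. Summed levels of that list were 187 to 283 CPM in Chow and 317 to 473 CPM in HFD. In KD mice, too, all 5 genes of the *Arntl* list fell with HFD (149.6 to 235 CPM in Chow/FGFR4 KD, 87.5 to 135 CPM in HFD/FGFR4 KD). Of the *Dbp* list 7 of 8 rose (169 to 189.8 CPM, 309.8 to 377 CPM), where 10.1% of all genes were called in each direction. With KD on HFD, 3 of the 5 genes of the *Arntl* list rose and 2 of the 8 of the *Dbp* list fell. Of all genes tested, KD on HFD had 1.5% called higher and 1.64% called lower. Kupffer cell markers rose in 7 of 8 (52.5 to 61.1 CPM in Chow, 96.5 to 178 CPM in HFD), stellate cell markers in 4 of 7 (93.2 to 136 CPM, 153 to 274 CPM) and endothelial markers in 3 of 6. Of 5 erythroid markers 4 rose and *Alas2* fell, at 272 to 523 CPM and 509.8 to 929 CPM. Hepatocyte markers summed to 63796 to 70117 CPM in Chow and 59981 to 70951 CPM in HFD, with 4 of 7 lower, among them *Tat* (-1.43, adjusted p = 0.00885). Lymphocyte and neutrophil markers were too low to be tested, at up to 4.45 and 3.68 CPM in sum in Chow and 3.02 and 2.29 CPM in HFD, with *Retnlg* at 0 in Chow and *Ly6g* at 0 in HFD. All 3 adipocyte markers tested, *Cidec*, *Cfd* and *Fabp4*, rose with HFD in saline mice. Over the 7 in the table the summed level was 4.95 to 29.1 CPM in Chow and 45.6 to 115 CPM in HFD. The markers not tested were too low for the filter, and *Plin1* and *Lep* were at 0 in HFD. In KD mice 2 of the 3 adipocyte markers rose with HFD, as did 2 of 8 Kupffer cell, 1 of 7 stellate cell and 1 of 6 endothelial markers, while 1 of 7 hepatocyte markers, 1 of 5 erythroid markers and 1 of 2 cholangiocyte markers fell. With KD on HFD, 2 of 3 adipocyte markers fell, as did 1 of 7 hepatocyte markers, *Ttr* (-0.51, adjusted p = 0.0791). With HFD in saline mice 0 of 2 cholangiocyte markers tested were called, and of 6 exocrine pancreas markers *Cela1* fell while *Ctrb1*, *Cpa1* and *Prss2* were at 0 in both groups. In liver tissue, fewer cells of a type and less RNA per cell cannot be told apart.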

How the data were processed

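Liver RNA from 16 mice was sequenced. The labels name the KAPA mRNA HyperPrep kit and the study's methods name HTG EdgeSeq, and which was used was not settled here. Per the labels, the authors trimmed reads with fastp and quantified them with kallisto on GRCm38, with versions not given in the sources used here. The deposited values are estimated counts per gene, which need not be whole, and 27199 of the 52143 genes were at 0 in every library. Of the gene identifiers 98.5% were matched to a symbol. Kallisto divides reads between near-identical transcripts, so counts of genes with pseudogenes depend on that division.

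Genes under 1 CPM in more than 4 libraries were removed, which left 11324. Counts were scaled by TMM (edgeR 4.0.16) and fitted with limma-voom (limma 3.58.1, R 4.3.3) with 1 mean per group over all 16 libraries. A gene was called at p below 0.05 and a Benjamini-Hochberg adjusted p below 0.25 over all genes tested. The alternatives to this fit were edgeR and DESeq2 (1.42.0), and for DESeq2 the estimated counts were first rounded. Libraries held 3445949 to 5976449 counts. The labels do not tie mice across groups, and p-values measure the spread between these samples, part of which may be technical. Libraries of a group differed by a chi-square of 7.59 to 72.6 per degree of freedom over 7405 genes, so none was a repeat deposit.

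The members and gene lists were chosen with earlier results of these data known. Genes described singly were *Fgfr4*, the stalk proteins, *Rpsa*, *Rps6*, the paralog pairs, at most 5 rising and 5 falling members with the smallest p among those called in each comparison, the 3 highest and 3 lowest members per kilobase, members at which a library stood apart, and at most 3 called genes of each list. Others were chosen after their values were seen. Values of 2 single genes are not reported here, and both stay in the counts and medians. Alternatives were other filters, scalings, tools, a replicate block, a GC and length correction, pseudogene counts added to members, a stricter adjusted p, and fits with each library left out in turn. Start sequences were taken from RefSeq (GRCm38.p6).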

Additional observations from a re-analysis of the deposited data

Results flagged for a closer look

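In each group of 4 libraries, a library was singled out where its gap to the nearest other, divided by the range, was above Dixon's limit of 0.829. Of 328 groups tested (the 80 genes and summed levels) 24 passed, where chance flags about 1 in 20, or 16.4. The values of 23 are given here. All values are CPM.

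HFD/FGFR4 KD 1 was high in 7 of these. Its summed level was 8988 against 7779 to 7901 in the other 3. It held 117.6 for *Rpl21* (others 94.3 to 96.6), 115.1 for *Rpl26* (89.3 to 93.0), 50.57 for *Rpl35* (37.3 to 38.6) and 54.22 for *Rpl39* (47.5 to 48.5). It also held 193.4 for *Rpl7a* (162 to 164) and 248.5 for *Rpsa* (181 to 189.7). The same library had the lowest TMM factor of its group, and the part of that in these levels was not tested.

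On HFD, library 2 was high for *Rpl36* (43.92, others 32.9 to 34.3), *Rps2* (461.5, others 354 to 365), *Rps27* (65, others 48.4 to 50.1) and *Rpsa* (218.1, others 178 to 179). HFD 4 was low for *Rpl22l1* (10.5, others 13.5 to 13.6), *Rpl3* (121.5, others 136 to 137) and *Rpl39* (40.44, others 53.5 to 55.4), and HFD 1 was low for *Rpl9* (105.5, others 112 to 113).

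In Chow, library 1 was low for *Rpl27a* (88.99, others 104 to 107) and *Rps6* (138.5, others 146 to 147). Chow 3 was high for *Rpl27* (43.65, others 28.8 to 29.9) and *Rps27l* (88.01, others 71.7 to 73.0), and Chow 4 for *Rps19* (80.2, others 67.1 to 68.5). In Chow/FGFR4 KD, library 2 was high for *Rpl5* (43.51, others 30.4 to 32.5) and *Rpl6* (195.4, others 175 to 178), and library 3 was low for *Rpl32* (85.98, others 102 to 104).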

How the results depend on the processing

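Single genes with pseudogene copies, changes under 0.1 and calls with KD on HFD are the least certain values here, and the scaling sets the size of the diet change. With library totals alone, 16 (saline) and 7 (KD) genes were lower on HFD with medians of -0.1362 and -0.1056, 0 were higher with KD on HFD (114 genes in all), 3 genes were called with KD on chow, and the difference had 0 calls and a median of 0.03444. The sums were then 9279.83, 9225.56 and 8393.2 CPM in Chow, Chow/FGFR4 KD and HFD. The cause was not tested, nor for the changes below other than the sums without *Gm42418* and *Lars2*.

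Members higher with KD on HFD, 5 as reported, numbered 0 with no filter, 3 with upper quartile scaling, 2 with edgeR, 9 with library quality weights (776 genes in all), 2 with only the groups compared (222 genes), 3 with a replicate block, 0 at an adjusted p below 0.05 (31 genes) and, chosen after seeing the data, 2 with word-sharing pseudogenes added. No filter gave 5324 genes with HFD in saline mice and 7 for the difference. DESeq2 gave 2 genes with KD on chow and 62 for the difference, 3 of them members. Quality weights gave 7 and the block 2 genes for the difference, and only the groups compared gave 2 with KD on chow and could not be fitted for the difference. The adjusted p of 0.05 left 1042 and 351 genes for HFD in saline and KD mice, 13 members in the latter, and 1 gene for the difference. Leaving out *Gm42418* and *Lars2* takes their counts out of the library totals, which raises CPM. The sums were then 12404.7 CPM in Chow, 11899.5 CPM in Chow/FGFR4 KD, 9282.1 CPM in HFD and 9959.1 CPM in HFD/FGFR4 KD. HFD stayed below Chow. With named pseudogenes the HFD ratio was 1.43534.

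Leaving out each library gave 89 to 605 genes and 0 to 5 members with KD on HFD, 1 to 2 genes with KD on chow, 1189 to 2546 genes and 38 to 62 members for HFD in KD mice, 73 to 76 members in saline mice and 1 to 27 genes for the difference.

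Directions turned for these small changes. With library totals they were -0.019 (*Rpl22*) and -0.035 (*Rps27*) with KD on HFD, 0.040 (*Rplp0*) with KD on chow, 0.050 (*Rps6*) and 0.21 (*Rps27l*) with HFD in saline mice, and 0.0021 (*Rplp1*), 0.020 (*Rpl22*) and 0.040 (*Rps27l*) in KD mice. With named pseudogenes *Rps6* was at 0.023 on HFD, -0.078 on chow and 0.10 for the difference, and with word-sharing ones at 0.021, -0.075 and 0.10. With GC and length removed *Rps27l* was at 0.058 and 0.041. Without single libraries the ranges were -0.054 to 0.022 (*Rplp0*, KD on chow), -0.10 to 0.0047 (*Rps27l*, HFD in saline mice), and, with KD on HFD, -0.096 to 0.016 (*Rps27l*), -0.091 to 0.14 (*Rps27*) and -0.022 to 0.16 (*Rpsa*).

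Correlations between same-numbered libraries were weak (24 pairs, r from -0.29 to 0.24, 7 over 0.1, and 3 of 16 libraries closest to their own number). They give no sign of a pairing, but with so few mice they cannot exclude that the numbers mark something shared. The replicate block moved the members called with KD on HFD from 5 to 3.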
